A study of Homo sapiens with 8 samples.

Results

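T-cell receptor gene segments are the V, D, J and C genes from which the receptor chains of T cells are assembled. They were taken from the gene tables as every entry whose symbol has the form of a TRA, TRB, TRD or TRG variable, diversity or joining segment, together with the constant genes TRAC, TRDC, TRBC1, TRBC2, TRGC1 and TRGC2, which gave 216 of 64252 genes. Of these, 126 lie in the TRA/TRD locus on chromosome 14, 66 in the TRB locus and 16 in the TRG locus on chromosome 7, and 8 are orphon segments outside the loci. By class they were 54 TRAV, 60 TRAJ, 64 TRBV, 8 TRBJ, 12 TRGV, 2 TRGJ, 3 TRDV, 3 TRDD and 4 TRDJ segments and the 6 constant genes. A further 10 names in the annotation match the same form and were not analysed here, among them TRBD1 and the TRBJ1 segments.

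The study asked what loss of LDB1, a protein that bridges enhancers and promoters, does to gene expression in leukemia of the T-cell lineage. RNA was sequenced from 2 established lines of T-ALL (acute lymphoblastic leukemia of T cells), 6T-CEM, a derivative of CCRF-CEM, and J.gamma1, a derivative of Jurkat. Each line carried either a control short hairpin RNA (sh-NC) or a hairpin against LDB1 (sh-LDB1), with 2 libraries in each of 4 groups and 8 in all. The hairpins were delivered with a lentiviral vector, all cells were selected with puromycin, and which LDB1 hairpin was sequenced is not given in the sources used here. Nothing states that the 2 libraries of a group came from separate cultures, so p-values measure only the spread between these libraries.

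A T cell joins 1 V segment to a J segment, at TRB and TRD with a D segment between them, and the joined exon is spliced to a C gene. A rearranged segment is then transcribed from the promoter of its own V segment, under an enhancer that lies near the C genes. Alpha and beta chains pair in most T cells and gamma and delta chains in the others, and a line grown from 1 leukemic cell is known to carry few rearrangements.

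Total counts lay between 26160492 and 30604977 per library, and the receptor segments held between 0.116% and 0.192% of them. The targeted gene followed its labels. LDB1 had 2777 and 2996 counts in 6T-CEM sh-NC and 1078 and 1000 in sh-LDB1, with a log2 fold change of -1.60 (SE 0.071, adjusted p = 1.02e-09, edgeR quasi-likelihood test), and 1909 and 1854 against 929 and 906 in J.gamma1, a log2 fold change of -0.89 (SE 0.075, adjusted p = 3.68e-06, edgeR). All 7 T-lineage markers (CD3D, CD3E, CD3G, CD247, CD2, CD5, CD7) were detected in every library, with CD2 at only 9 to 14 counts in 6T-CEM. Their summed level was 1170 to 1210 CPM (counts relative to the TMM-scaled size of the library) in 6T-CEM sh-NC and 1560 to 1590 in sh-LDB1, and 1140 to 1150 against 1750 to 1800 in J.gamma1. Of the 7, 4 rose and 1 fell in each line at an adjusted p under 0.05 (edgeR). Over all genes 15.1% rose and 16.2% fell in 6T-CEM, and 25% and 26.5% in J.gamma1. The 1 that fell was CD5 in 6T-CEM (-0.54 on the log2 scale, adjusted p = 7.96e-05) and CD3D in J.gamma1 (-0.21, adjusted p = 0.00279, edgeR). Of the B-lineage markers, MS4A1 had at most 3 counts in any library, PAX5 had 45 to 88 in 6T-CEM and 0 in J.gamma1, and EBF1 had 0 in 6T-CEM and 86 to 153 in J.gamma1. CD79A had between 608 and 2224 counts and rose with knockdown in 6T-CEM (by 0.74 on the log2 scale, adjusted p = 2.96e-05) and in J.gamma1 (0.20, adjusted p = 0.0153, edgeR), and EBF1 rose in J.gamma1 (0.84, adjusted p = 0.00677, edgeR). Of the NK markers, NCR1 and KLRF1 were at 0 in every library, NCAM1 had 2 to 6 counts in 6T-CEM and 51 to 84 in J.gamma1, and KLRD1 had 0 counts except for 25 and 21 in the J.gamma1 sh-LDB1 libraries. The 5 myeloid markers summed to at most 2.98 CPM in any library. Among them MPO had 9 and 8 counts in 6T-CEM sh-NC, 38 and 32 in sh-LDB1 and 0 in J.gamma1. It passed the filter on low counts through its sh-LDB1 libraries and had to be higher there, so these counts are a description. What part these markers have in the results was not tested.

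Most receptor segments had no or few counts. Of the 216, 129 had no count in any library, 162 had at most 3 counts in every library, and 37 reached 10 counts in at least 1 library. A count of 0 allows up to 3 counts per library, which is 0.0945 to 0.115 CPM. In 6T-CEM 21 segments reached 10 counts, among them 6 of 54 TRAV, 3 of 64 TRBV and 3 of 12 TRGV segments. In J.gamma1 25 did, among them 10 TRAV, 4 TRBV and 4 TRGV segments. TRDC, the constant gene of the delta chain, and the TRDD and TRDJ segments were at 0 in all 8 libraries, and TRDV1 was the only TRDV segment with counts, with 7 and 2 in 6T-CEM sh-NC and 27 and 10 in sh-LDB1.

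**Figure D1:**
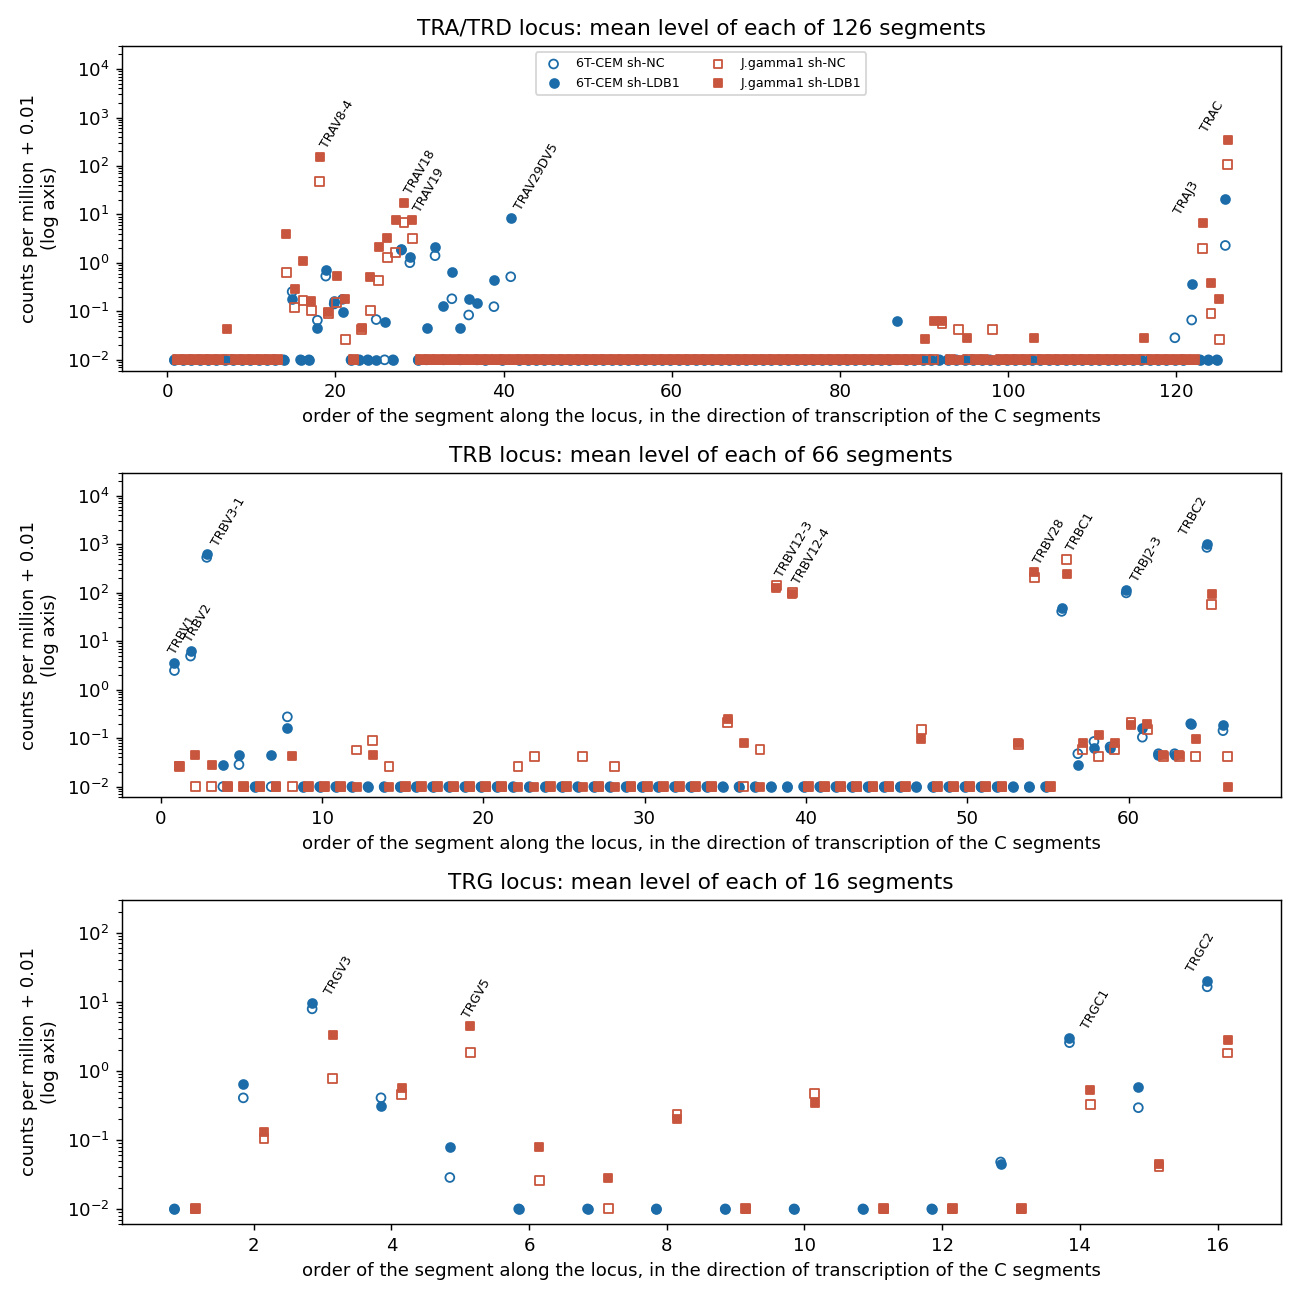
Mean level of each segment in CPM plus 0.01 on a log axis, against the order of the segments along the TRA/TRD, TRB and TRG loci. Blue circles are 6T-CEM and red squares J.gamma1, open for sh-NC and filled for sh-LDB1, each the mean of 2 libraries, and points on the lowest level are segments at 0. The 2 lines have their high TRBV and TRAV points at different segments, TRBV3-1 in 6T-CEM and TRBV12-3, TRBV12-4, TRBV28 and TRAV8-4 in J.gamma1.

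A few segments on which the results turn are shown by their germline sequence at or up to the end where joining takes place. They are TRAV8-4, TRBV3-1 and TRBV28, which led their class in a line, TRBV12-3, the higher of a near-identical pair, TRAV29DV5, which led in 6T-CEM after knockdown, the TRAJ segment with the most counts in each line, and TRBJ2-3. Sequences are 5′ to 3′ from hg38 and all lie on the plus strand. For V segments the last 30 bases of the V exon are given, with the codon of its conserved second cysteine in capitals, and these are TRAV8-4 (chr14:21895001-21895030), TRAV29DV5 (chr14:22163841-22163870), TRBV3-1 (chr7:142309019-142309048), TRBV12-3 (chr7:142560902-142560931) and TRBV28 (chr7:142721131-142721160).
TRAV8-4: cgcggctgagtacttcTGTgctgtgagtga
TRAV29DV5: actctgcagtgtacttcTGTgcagcaagcg
TRBV3-1: tgctgtgtatttcTGTgccagcagccaaga
TRBV12-3: agctgtgtacttcTGTgccagcagtttagc
TRBV28: atctatgtacctcTGTgccagcagtttatg
For J segments the whole segment is given, with the codons of the conserved phenylalanine-glycine-X-glycine motif in capitals, and these are TRAJ4 (chr14:22542199-22542261), TRAJ3 (chr14:22543179-22543240) and TRBJ2-3 (chr7:142796847-142796895).
TRAJ4: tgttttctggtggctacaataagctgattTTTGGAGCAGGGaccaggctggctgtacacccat
TRAJ3: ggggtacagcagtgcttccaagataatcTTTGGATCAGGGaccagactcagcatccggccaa
TRBJ2-3: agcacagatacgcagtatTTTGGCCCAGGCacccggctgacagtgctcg

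The lines were first compared without knockdown, to see which segments each one transcribes. In the sh-NC cells 28 of the 34 segments tested in the joint fit were called, which needed a log2 difference beyond 1 with an adjusted p under 0.05 (edgeR), with 16 higher in J.gamma1 and 12 higher in 6T-CEM. Over all genes 32.4% were called, 19.1% higher and 13.3% lower in J.gamma1. A segment that passes the filter on low counts only because it is high in 1 line had to differ, so the number called is a description of which line uses which segment. Cell line and count table cannot be told apart here.

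At TRB, 1 V segment and 1 J segment led in 6T-CEM. TRBV3-1 (chr7:142308542-142309048, 2 exons) had 14772 and 13699 counts in 6T-CEM sh-NC and 0 and 0 in J.gamma1 sh-NC, at least 5680-fold higher in 6T-CEM when J.gamma1 is set to 3 counts per library. It held 98.6% (95% exact Clopper-Pearson interval 98.4 to 98.8) and 98.5% (98.3 to 98.7) of all TRBV counts in the 2 sh-NC libraries; such intervals cover counting error only. TRBJ2-3, a joining segment of the second TRB cluster, had 2798 and 2470 counts against 6 and 7 in J.gamma1. TRBV1 and TRBV2, the segments just upstream of TRBV3-1, were far lower, at 68 and 63 and at 123 and 139 counts, and of the 64 TRBV segments no other reached 10 counts in 6T-CEM.

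J.gamma1 had 3 abundant TRBV segments, none of which had a count in 6T-CEM. TRBV12-3 had 4360 and 4566 counts in the sh-NC libraries, TRBV12-4 had 3072 and 3234, and TRBV28 had 3363 and 9470. The bounds on the difference from 6T-CEM were at least 1240-fold, 879-fold and 1790-fold. TRBV28 thus held 31.1% (30.2 to 32.0) of TRBV counts in 1 sh-NC library and 54.7% (54.0 to 55.5) in the other, a wider gap between replicates than for TRAV8-4 or TRGV5, which led the TRAV and TRGV segments of this line. TRBV12-3 and TRBV12-4 are near-identical copies, with 6 of 298 bases different in their second exon, and 31.9% and 32.2% of the 100-base windows of their exons occur in both or in another segment, so counts may be split between them. TRBV12-3 held 56.8% to 58.7% of the pair's counts in all 4 libraries.

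The constant genes of the beta chain went with the line. TRBC2 (chr7:142801041-142802748), the constant gene behind the TRBJ2 cluster, had 22594 and 23134 counts in 6T-CEM sh-NC and 1515 and 2086 in J.gamma1 sh-NC, a log2 difference of -3.92 (SE 0.159, adjusted p = 3.23e-06, edgeR). TRBC1 (chr7:142791694-142793368), which lies behind the TRBJ1 cluster, ran the other way, with 1048 and 1147 counts in 6T-CEM and 17485 and 13486 in J.gamma1, a log2 difference of 3.56 (SE 0.167, adjusted p = 5.01e-06, edgeR). TRBC1 took 4.43% and 4.72% of the summed counts of both genes in 6T-CEM sh-NC and 92.0% and 86.6% in J.gamma1 sh-NC. The first exons of the 2 genes differ at 7 of 387 bases, and how the authors treated reads that match both is not given in the sources used here. The first 30 bases of that exon hold 3 of the differing bases, shown in capitals below, for TRBC1 at chr7:142791694-142791723 and for TRBC2 at chr7:142801041-142801070.
TRBC1: aggacctgaaCaaGgtgttcccacccGagg
TRBC2: aggacctgaaAaaCgtgttcccacccAagg

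At TRA, the alpha chain's constant gene was far higher in J.gamma1. TRAC (chr14:22547506-22552156, 4 exons) had 59 and 62 counts in 6T-CEM sh-NC and 3427 and 3413 in J.gamma1 sh-NC, a log2 difference of 5.56 (SE 0.076, adjusted p = 2.65e-13, edgeR). Per kilobase of exon, TRAC stood at 2.34 ± 0.0217 CPM (SD, n = 2) in 6T-CEM, where TRBC2 stood at 1140 ± 10.4. In J.gamma1 it stood at 110 ± 0.174, against 643 ± 115 for TRBC1.

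TRAV8-4 (chr14:21894433-21895030) led the TRAV segments of J.gamma1. It had 1447 and 1619 counts in sh-NC and 0 and 3 in 6T-CEM sh-NC, at least 427-fold higher in J.gamma1, and held 76.7% (74.7 to 78.6) and 77.1% (75.2 to 78.9) of the TRAV counts. TRAJ3 had 67 and 59 counts there and none in 6T-CEM. The other J.gamma1 TRAV segments that reached 10 counts lay on both sides of TRAV8-4, from TRAV8-2 to TRAV19, and TRAV22 and TRAV29DV5, which come after these, were at 0 in all 4 J.gamma1 libraries.

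In 6T-CEM sh-NC no TRAV segment dominated. TRAV18 had 48 and 49 counts, or 38.1% (29.6 to 47.2) and 24.6% (18.8 to 31.2) of TRAV counts, TRAV19 had 24 and 29, TRAV22 had 19 and 56, and TRAV29DV5 had 11 and 16. TRAV22 and TRAV29DV5 had no count in J.gamma1 and were at least 14.8-fold and 5.36-fold higher in 6T-CEM.

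TRG transcripts were low in both lines and higher in 6T-CEM for the constant genes. TRGC2 (chr7:38239580-38249572, minus strand) had 483 and 385 counts in 6T-CEM sh-NC and 60 and 54 in J.gamma1 sh-NC, a log2 difference of -3.19 (SE 0.182, adjusted p = 1.46e-08, edgeR). TRGC1 had 81 and 53 against 13 and 7; it overlaps TARP on the same strand, and its first exon differs from that of TRGC2 at 6 of 330 bases, so both values are uncertain. TRGV3 led in 6T-CEM, with 211 and 205 counts against 24 and 24, and TRGV5 led in J.gamma1, with 68 and 48 counts against 0 and 1. TRGV9, which pairs with TRDV2 in many blood gamma-delta T cells, had 22 and 7 counts in J.gamma1 sh-NC and none in 6T-CEM.

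Knockdown of LDB1 went with more TRA transcripts in both lines. In 6T-CEM 2 of the 19 segments tested, TRAC and TRAV29DV5, were called (edgeR, with the same limits on fold and adjusted p), both higher, where 5.13% of all genes passed in either direction and 2.74% upward. In J.gamma1 13 of 24 passed, all higher, where 13.9% of all genes passed and 6.67% upward. Some of the 24, such as TRAJ2 and TRAV13-1, passed the filter on low counts through their sh-LDB1 libraries and had to be higher there, so these counts describe the segments and support nothing further. Without the filter, 12 of the 71 segments with a count in J.gamma1 were called, where 2190 of 28973 genes were. In 6T-CEM 2 of 48 were, where 660 of 27413 genes were. The tested segments had a median log2 fold change of 0.37 (6T-CEM) and 1.37 (J.gamma1), against 0.003 and 0 over all genes. Each median is taken over the same filtered segments, so it is a description as well. At an adjusted p under 0.05 alone, 4 segments rose in 6T-CEM and none fell, where 15.1% of all genes rose and 16.2% fell, and 14 rose and 2 fell in J.gamma1, where 25% rose and 26.5% fell. In bulk RNA, a change in the number of cells that transcribe a segment and a change in RNA per cell cannot be told apart.

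**Figure D2:**
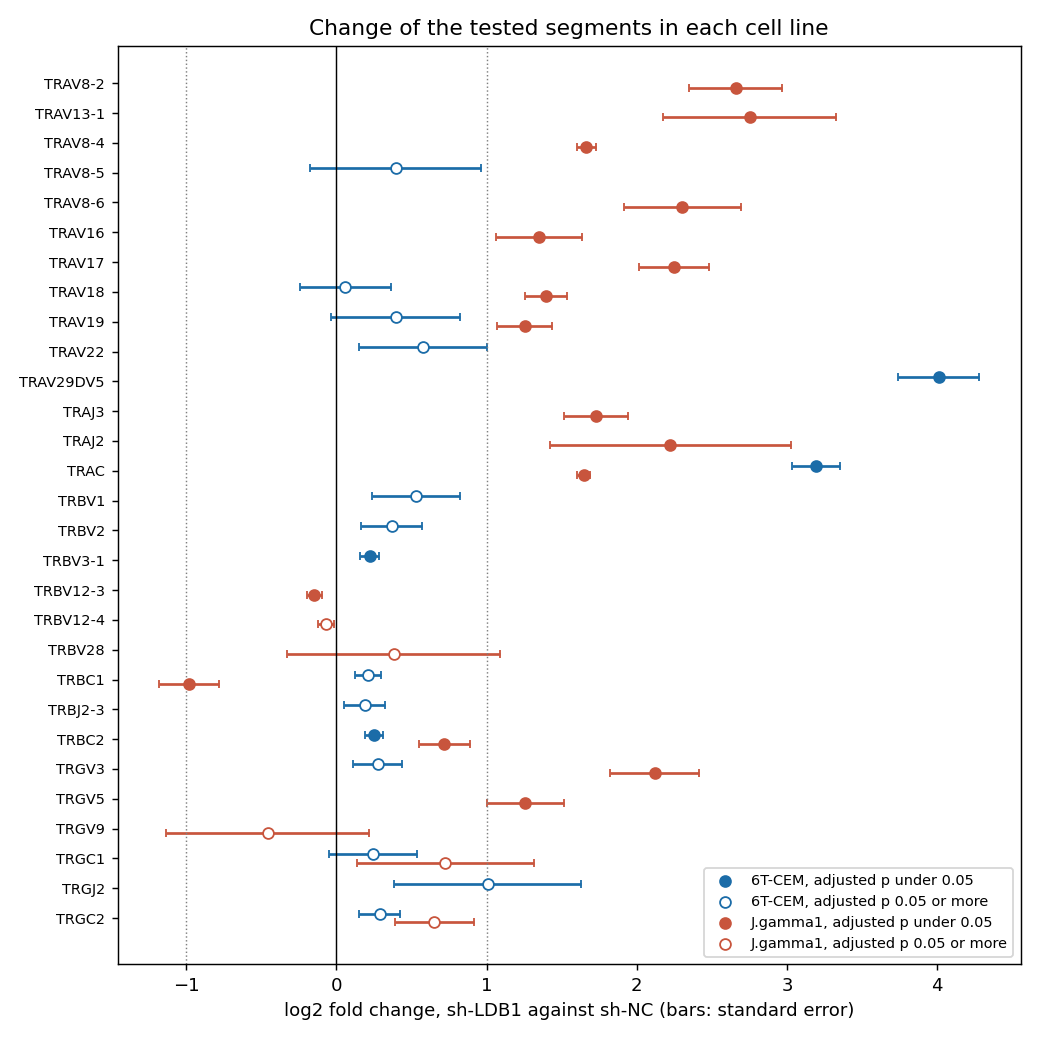
Log2 fold change of sh-LDB1 against sh-NC for the segments named in the text that were tested, with standard errors, in 6T-CEM (blue) and J.gamma1 (red), filled where the adjusted p of edgeR's test was under 0.05. TRA segments of J.gamma1 lie at 1.25 or above, TRAC and TRAV29DV5 of 6T-CEM lie above 3, and TRBC1 of J.gamma1 lies at -0.98.

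TRAC rose in both lines and by more in 6T-CEM. In 6T-CEM it went from 59 and 62 counts in sh-NC to 627 and 579 in sh-LDB1, from 2.28 ± 0.0212 to 20.9 ± 0.890 CPM (SD, n = 2), a log2 fold change of 3.19 (SE 0.161, adjusted p = 3.98e-09, edgeR). In J.gamma1 it went from 3427 and 3413 to 9391 and 9955 counts, from 108 ± 0.170 to 337 ± 1.70 CPM, a log2 fold change of 1.65 (SE 0.046, adjusted p = 1.64e-09, edgeR). Both knockdown libraries lay above both controls in each line. The change in J.gamma1 was smaller than that in 6T-CEM by 1.55 on the log2 scale (-1.55, SE 0.103, adjusted p = 2e-06, edgeR interaction test), while the sh-NC level of J.gamma1 was still above the sh-LDB1 level of 6T-CEM.

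TRAV29DV5, a V segment that can be joined at TRA or TRD, had the largest change of the tested segments in 6T-CEM. Its counts were 11 and 16 in sh-NC and 230 and 247 after knockdown, from 0.508 ± 0.120 to 8.26 ± 0.529 CPM, a log2 fold change of 4.01 (SE 0.270, adjusted p = 6.19e-08, edgeR). Its share of TRAV counts went from 8.73% (4.44 to 15.1) and 8.04% (4.67 to 12.7) to 49.6% (44.9 to 54.2) and 55.8% (51.0 to 60.4), and it took the lead from TRAV18. TRAV18 itself had 57 and 53 counts after knockdown, with a log2 fold change of 0.06 (SE 0.302, adjusted p = 0.909, edgeR), and TRAV22 had 60 and 61. TRAJ4, the TRAJ segment with the most counts in this line, had 1 and 2 counts in sh-NC and 11 and 10 in sh-LDB1 and did not pass the filter on low counts.

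In J.gamma1 the rise ran across TRAV8-4 and the segments around it. TRAV8-4 went from 1447 and 1619 to 4355 and 4424 counts, a log2 fold change of 1.66 (SE 0.065, adjusted p = 1.45e-08, edgeR), and its share of TRAV counts was 77.5% (76.4 to 78.6) and 77.0% (75.9 to 78.1) after knockdown. TRAJ3 went from 67 and 59 to 178 and 200 counts, a log2 fold change of 1.73 (SE 0.212, adjusted p = 5.59e-05, edgeR). Thus TRAC, TRAV8-4 and TRAJ3 had log2 fold changes of 1.65, 1.66 and 1.73.

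The other 7 TRAV segments called in J.gamma1 rose by log2 fold changes between 1.25 and 2.75. TRAV13-1, which is among these 7, passed the filter on low counts through its sh-LDB1 libraries and had to be higher there. The same holds for TRAV13-2, TRAV12-3 and TRAJ2, so the values of these segments are descriptions. TRAV17 went from 53 and 50 to 183 and 262 counts (log2 fold change 2.25), TRAV8-2 from 16 and 23 to 106 and 118 (2.66) and TRAV18 from 196 and 229 to 522 and 488 (1.40). TRAV8-2 shares 10.9% of its 100-base windows with other segments and TRAV8-4 shares 13.8%, and reads that match both make their counts uncertain. TRAV13-2 and TRAV12-3 had log2 fold changes of 1.85 and 2.32 and missed the threshold (adjusted p = 0.0727 and 0.0637, edgeR). TRAJ2, which lies between TRAJ3 and TRAC, went from 3 and 2 to 10 and 12 counts (log2 fold change 2.22, adjusted p = 0.0381, edgeR), a call that DESeq2 (adjusted p = 0.181) and the omission of any 1 library ended.

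Of the segments counted in both lines, TRAV18 differed in its response, with a log2 fold change higher in J.gamma1 by 1.33 (SE 0.264, adjusted p = 0.00305, edgeR interaction test). In all, 4 of 34 segments differed between the lines in their knockdown change, 2 in each direction, where 24.4% of all genes did. For the segments at or near 0 in 1 line no difference of changes could be estimated, and 9 segments were tested in each line on its own.

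**Figure D3:**
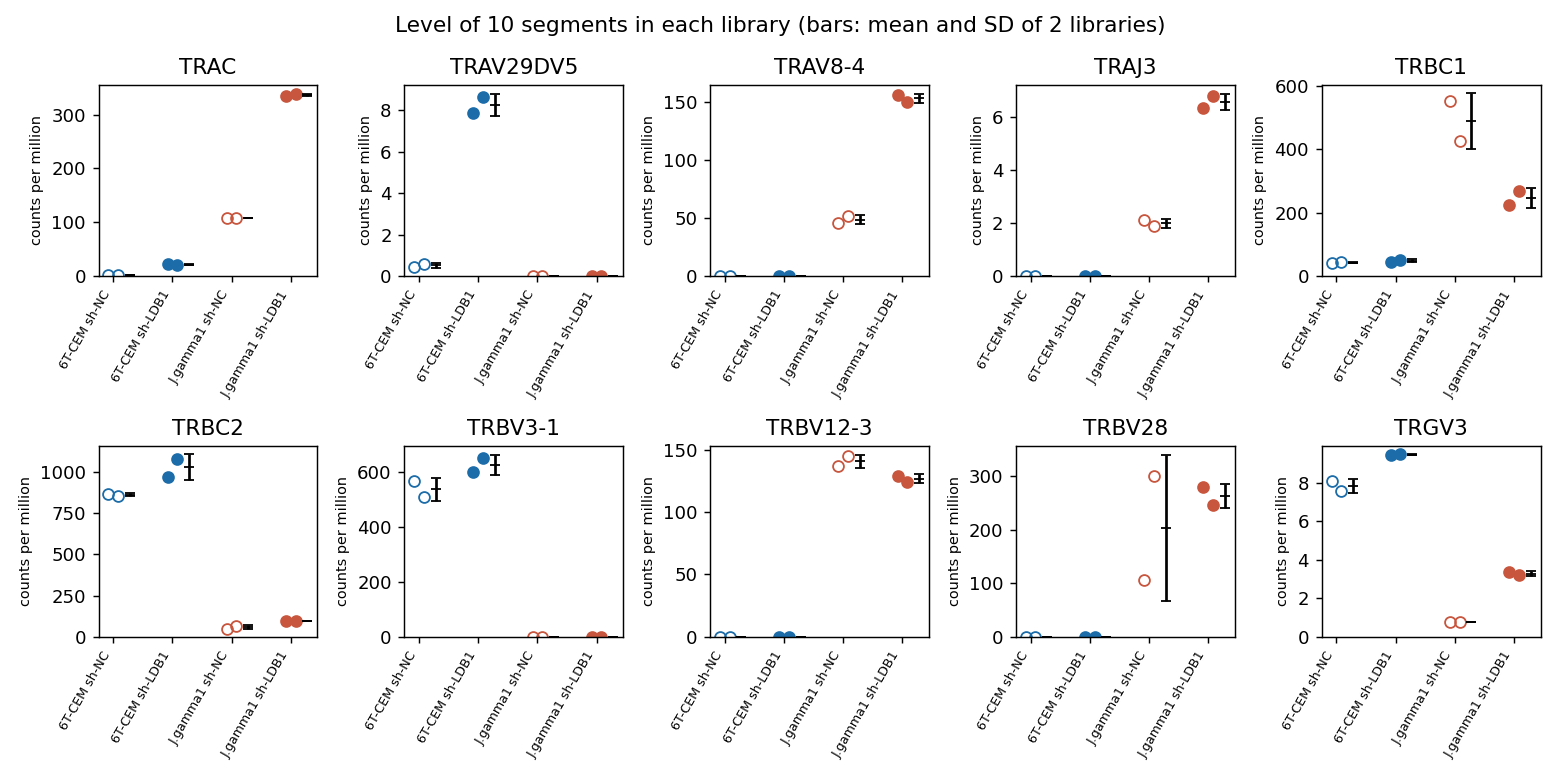
Level in CPM of 10 segments in each of the 8 libraries, open for sh-NC and filled for sh-LDB1, with the mean and SD of 2 libraries as black bars. TRAC rises in both lines, TRAV29DV5 has counts in 6T-CEM only, and the 2 J.gamma1 sh-NC libraries stand far apart for TRBV28.

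At TRB in 6T-CEM, 2 of 6 tested segments rose at an adjusted p under 0.05, TRBC2 and TRBV3-1, where 15.1% of all genes rose. TRBC2 went from 22594 and 23134 to 28271 and 30923 counts, from 864 ± 7.85 to 1030 ± 78.9 CPM, a log2 fold change of 0.25 (SE 0.059, adjusted p = 0.00482, edgeR). TRBV3-1 went from 14772 and 13699 to 17477 and 18655 counts, a log2 fold change of 0.22 (SE 0.064, adjusted p = 0.0197, edgeR). In both, the knockdown libraries lay above the controls, by less than 1 on the log2 scale. TRBC2 missed the threshold without sh-NC replicate 2 (adjusted p = 0.0565), without sh-LDB1 replicate 2 (0.0601) and in the joint fit (0.268), and TRBV3-1 missed it without the same libraries (0.184 and 0.155, edgeR). TRBJ2-3 had 2951 and 3576 counts after knockdown, with a log2 fold change of 0.19 (adjusted p = 0.384, edgeR).

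In J.gamma1 the 2 beta constant genes moved in opposite directions. TRBC1 went from 17485 and 13486 to 6272 and 7939 counts, from 489 ± 87.1 to 247 ± 32.1 CPM, a log2 fold change of -0.98 (SE 0.202, adjusted p = 0.0452, edgeR). TRBC2 went from 1515 and 2086 to 2632 and 2728 counts, a log2 fold change of 0.72 (SE 0.169, adjusted p = 0.0282, edgeR). The groups did not overlap for either gene, and the share of TRBC1 in the pair went from 92.0% and 86.6% to 70.4% and 74.4%. Both changes were under 1 on the log2 scale and so were not called. They were also fragile, since neither kept an adjusted p under 0.05 without sh-LDB1 replicate 1 or 2. With a library left out, the log2 fold change ran from -1.16 to -0.79 for TRBC1 and from 0.50 to 0.97 for TRBC2. With both genes summed, the log2 fold change was -0.68 (SE 0.126, adjusted p = 0.0155, edgeR), and it differed from the 0.25 of 6T-CEM (difference -0.93, SE 0.145, adjusted p = 0.00333). For TRBC1 alone the difference between the lines was -1.19 (SE 0.221, adjusted p = 0.0123, edgeR interaction test); without 6T-CEM sh-NC replicate 1 or sh-LDB1 replicate 2 its adjusted p was 0.0563 or 0.0561.

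Of the 3 TRBV segments tested in J.gamma1, 1 fell at an adjusted p under 0.05, where 26.5% of all genes fell. TRBV12-3 went from 4360 and 4566 to 3619 and 3668 counts, a log2 fold change of -0.15 (SE 0.052, adjusted p = 0.0363, edgeR), and TRBV12-4 from 3072 and 3234 to 2634 and 2791, one of -0.07 (adjusted p = 0.295). The change of TRBV12-3, under 1 on the log2 scale, missed an adjusted p of 0.05 under DESeq2 (adjusted p = 0.0868). It also missed it without sh-NC replicate 2, sh-LDB1 replicate 1 or sh-LDB1 replicate 2. With a library left out, its log2 fold change ran from -0.18 to -0.11. With the near-identical TRBV12-3 and TRBV12-4 summed, the log2 fold change was -0.12 and also missed it (SE 0.047, adjusted p = 0.0642, edgeR). TRBV28 had 3363 and 9470 counts in sh-NC and 7811 and 7283 after knockdown, with a log2 fold change of 0.38 (SE 0.709, adjusted p = 0.722, edgeR), and the groups overlapped. Its direction turned with the control library kept, with -0.18 (adjusted p = 0.054) without sh-NC replicate 1 and 1.31 (adjusted p = 8.42e-10) without sh-NC replicate 2. The library with the lower TRBV28 count had the higher TRBC1 count.

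**Figure D4:**
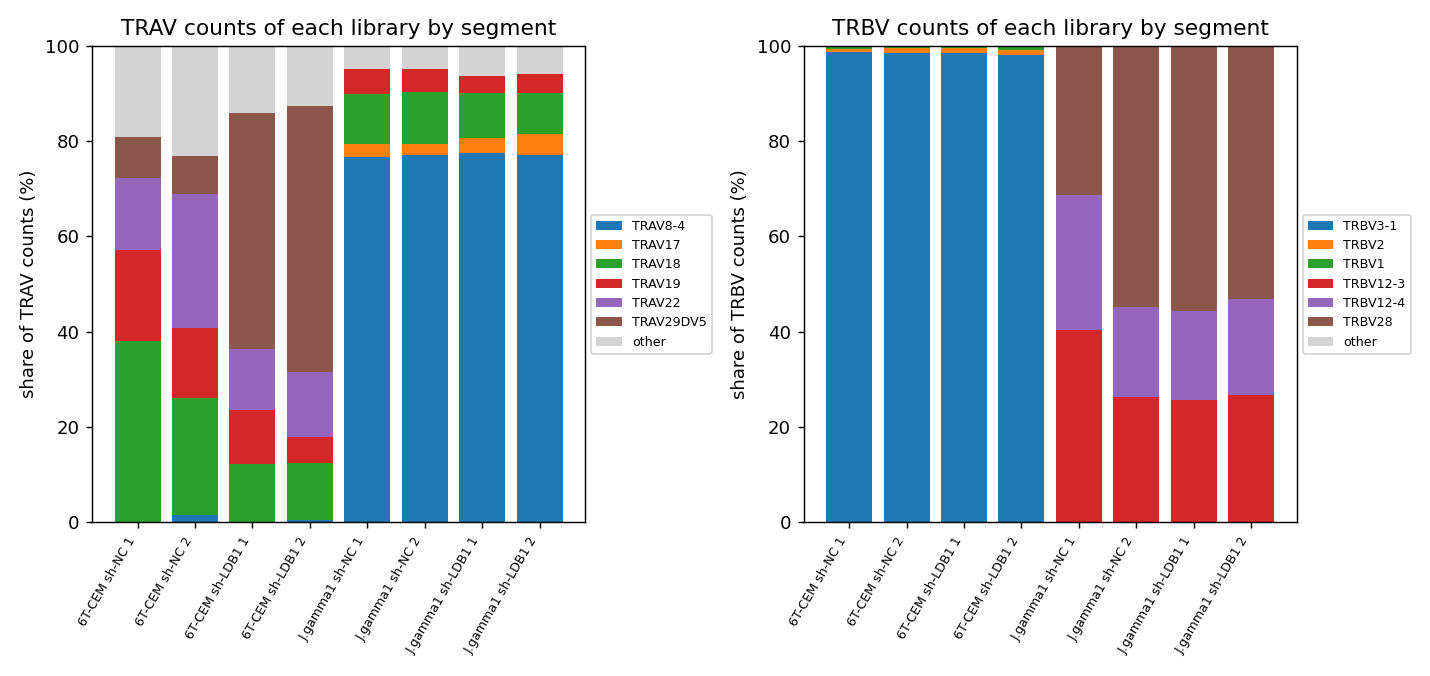
Share of the TRAV (left) and TRBV (right) counts of each of the 8 libraries held by 6 named segments and by all others. TRAV29DV5 goes from under 9% to about 50% or more in 6T-CEM with sh-LDB1, TRAV8-4 stays between 76.7% and 77.5% in J.gamma1, and TRBV3-1 holds at least 98.2% in 6T-CEM.

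At TRG, 2 of the 4 TRGV segments tested in J.gamma1 were called, both higher, where 6.67% of all genes were called upward. TRGV4 (12 and 16 counts in sh-NC, 17 and 15 after knockdown) and TRGV9 (22 and 7, then 10 and 9) were not called. TRGV3 went from 24 and 24 to 95 and 94 counts, a log2 fold change of 2.12 (SE 0.296, adjusted p = 0.000143, edgeR), and TRGV5 from 68 and 48 to 123 and 128, one of 1.26 (SE 0.258, adjusted p = 0.00195). In 6T-CEM TRGV3 had 211 and 205 counts in sh-NC and 276 and 272 after knockdown, with a log2 fold change of 0.27 (adjusted p = 0.223, edgeR). The change was larger in J.gamma1 by 1.84 (SE 0.283, adjusted p = 0.000598, edgeR interaction test). TRGC2 had log2 fold changes of 0.29 (6T-CEM) and 0.65 (J.gamma1) that missed an adjusted p of 0.05 (adjusted p = 0.127 and 0.0594, edgeR). With TRGC1 and TRGC2 summed, the log2 fold change was 0.28 in 6T-CEM (SE 0.139, adjusted p = 0.146, edgeR). In J.gamma1 the sum changed by 0.66 (SE 0.25, adjusted p = 0.0455, edgeR), under 1 on the log2 scale and so not called.

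Summed by class, TRAV counts were 2.57-fold higher with sh-LDB1 in 6T-CEM and 3.14-fold in J.gamma1, TRAJ counts 3.33-fold in J.gamma1, and TRGV counts 1.21-fold and 2.34-fold. The TRAV sum of 6T-CEM rested largely on TRAV29DV5, which held 8.73% and 8.04% of it in sh-NC and 49.6% and 55.8% in sh-LDB1. TRBV counts stood at 1.16-fold and 1.09-fold of control, and the J.gamma1 value turned with the control library kept (log2 -0.18 without sh-NC replicate 1 and 0.51 without sh-NC replicate 2). These sums are descriptions and were not tested.

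The other proteins of the receptor complex were compared from a list of 5 genes. In 6T-CEM 4 rose and none fell, and in J.gamma1 4 rose and 1 fell (adjusted p under 0.05, edgeR), where 15.1% of all genes rose and 16.2% fell in the first line and 25% and 26.5% in the second. PTCRA, the invariant partner of the beta chain before an alpha chain is made, rose in both lines, from 17 and 41 to 110 and 163 counts in 6T-CEM (a log2 change of 2.12, adjusted p = 0.00213) and from 57 and 79 to 219 and 271 in J.gamma1 (1.99, adjusted p = 2.72e-05). The CD3 chains carry the signal of the receptor. CD3E had log2 fold changes of 0.63 and 0.94 (6T-CEM, then J.gamma1), CD3G of 0.49 and 1.15, and CD3D of 0.35 and -0.21. All of these were at an adjusted p under 0.05 (edgeR). CD247 was too in J.gamma1 (0.65), and in 6T-CEM it had 0.15 and an adjusted p of 0.0788.

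Among 10 genes of V(D)J recombination, 2 rose and 2 fell in 6T-CEM, near the 15.1% and 16.2% of all genes, and 5 rose and 3 fell in J.gamma1, beside 25% and 26.5% of all genes. RAG1, which cuts DNA at the segments together with RAG2, went from 2495 and 2788 to 8943 and 8937 counts in 6T-CEM (a log2 change of 1.64, adjusted p = 9.09e-11, edgeR) and from 1197 and 1187 to 9982 and 10162 in J.gamma1 (3.22, adjusted p = 3.27e-11). RAG2 rose by 1.04 and 0.73. DNTT, which adds bases at the joints, had log2 fold changes of -1.65 and -1.20. LIG4, the ligase that closes them, had -1.45 and -0.98, and all 4 values were at an adjusted p under 0.05 (edgeR).

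Of 12 factors known to act at receptor enhancers or promoters, 3 rose and 4 fell in 6T-CEM (15.1% and 16.2% of all genes) and 3 rose and 5 fell in J.gamma1 (25% and 26.5% of all genes), so the rising share in J.gamma1 equals that of all genes. MYB fell in both, with log2 fold changes of -0.94 and -2.63, as did RUNX1 (-0.33 and -0.97), ETS1 (-0.26 and -0.60) and GATA3 (-0.54 and -0.33). TCF12 and BCL11B rose in both, TCF12 by 0.16 and 0.43 and BCL11B by 0.42 and 0.25.

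Genes in or next to the loci were set beside the segments, those with at least 20 counts in a library. DAD1, which lies just past TRAC, had log2 fold changes, in 6T-CEM, of 0.31 (adjusted p = 0.00351, edgeR) and, in J.gamma1, of 0.17 (adjusted p = 0.0286), against 3.19 and 1.65 for TRAC. EPHB6, near TRBC2, rose by 0.52 in 6T-CEM (adjusted p = 1.1e-05) and had -0.12 in J.gamma1 (adjusted p = 0.187), a difference of -0.64 (adjusted p = 0.000101, edgeR interaction test). TRPV6 and TRPV5, on the same side of TRB, had more counts after knockdown in 6T-CEM. TRPV6 went from 0 and 2 to 20 and 11 counts and TRPV5 from 4 and 2 to 23 and 22. Both passed the filter on low counts through their sh-LDB1 libraries and had to be higher there, so these counts are a description. PGBD4P1, a pseudogene inside TRB, rose by 1.88 in J.gamma1 (adjusted p = 0.00259, edgeR). SALL2, at the V end of TRA, had a log2 fold change of -0.90 in J.gamma1 (adjusted p = 5.47e-06) and -0.15 in 6T-CEM (adjusted p = 0.508), and STARD3NL, beside TRG, had -0.24 in J.gamma1 (adjusted p = 0.00232) and 0.06 in 6T-CEM (adjusted p = 0.552). ABHD4 and PRSS2 did not pass in J.gamma1 (0.06 and -0.55) and were not tested in 6T-CEM.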

How the data were processed

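RNA of 6T-CEM and J.gamma1 cells was sequenced as paired-end libraries made with an Illumina TruSeq kit. The authors used HISAT2 2.2.0 for alignment (hg38) and StringTie for quantification, and deposited 1 table per line of whole-number counts per gene, not normalized and not pooled. The use of strand, the treatment of reads that match several genes and the step from coverage to counts are not given in the sources used here, so overlapping genes and near-identical segments are uncertain. Of 64252 identifiers 56105 were matched to a symbol and 8147 were not. Coordinates, exon lengths and sequences come from the hg38 genome and its GENCODE annotation. No column of another series was used (0 columns).

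Tests were run in R 4.3.3 (edgeR 4.0.16, DESeq2 1.42.0) and figures were drawn in Python 3.11.15 (matplotlib 3.10.9). Each line was fitted by itself with edgeR's quasi-likelihood test (robust, TMM, filterByExpr, Benjamini-Hochberg over all genes tested), and the lines were compared in a joint fit of all 8 libraries. Calls needed an adjusted p under 0.05 and, except for the difference between lines, also a log2 fold change beyond 1. The scripts were tested on simulated data. Where a group had no more than 3 counts in each library, the fold is a bound computed with 3. Standard errors were taken from the F statistic of each fold change. The segments and gene lists were chosen with earlier results of these data known. Named segments were the 6 constant genes, those whose mean count reached 20 in any group and those called in any comparison, 30 in all; TRAJ4, TRDV1, TRAV13-2, TRAV12-3 and genes next to the loci were added after their values were seen. For the contrasts between lines, the 8 named segments tested in each line by itself were kept apart from the other 22, a split made after their values were seen. Alternatives were other size factors, no filter and a stricter filter, DESeq2, the replicate number as a term, summed copies, a joint fit and leaving out each library.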

Additional observations from a re-analysis of the deposited data

Results flagged for a closer look

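For 4 of the 34 segments tested, the knockdown change differed between the lines by a test of the difference itself (edgeR interaction test, J.gamma1 minus 6T-CEM, log2). Over all genes 24.4% did. The difference was -1.55 for TRAC (adjusted p = 2e-06), which rose in both lines. It was 1.33 for TRAV18 (adjusted p = 0.00305), 1.84 for TRGV3 (adjusted p = 0.000598) and -1.19 for TRBC1 (adjusted p = 0.0123). That of TRBC1 ran from -1.37 to -1 with a library left out, and it was not called with the replicate number as a term. With 2 libraries per group no single library can be tested as standing apart. The knockdown itself also differed, with log2 fold changes of LDB1 of -1.60 (6T-CEM) and -0.89 (J.gamma1), and what part this has was not tested.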

How the results depend on the processing

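The count of called segments in 6T-CEM ran from 2 to 3 under the alternatives that kept the fold threshold, with 3 without sh-NC replicate 2, and was 4 at an adjusted p under 0.05 alone; in J.gamma1 it ran from 12 to 14 when a library was left out, for the difference between lines from 3 to 5 and for the sh-NC lines from 24 to 29. TRAC was called in each line under every alternative run. The summed TRAC level of J.gamma1 stood at 1.67 (log2) with total counts in place of TMM, and the TRAV8-4 share at 75.7% per kilobase and 77.2% without segments under 10 counts; each moved past the narrow spread of 2 libraries. Directions turned without 1 library, none at an adjusted p under 0.05 in the turned direction: with a library left out, the log2 fold change ran from -0.16 to 1.35 for TRAV8-5, -0.24 to 0.83 for TRAV19 and -0.05 to 0.61 for TRGC1 (-0.02 without sh-LDB1 replicate 2) in 6T-CEM, and from -0.18 to 1.31 for TRBV28 and -1.06 to 0.57 for TRGV9 in J.gamma1. The summed TRBV level of J.gamma1 ran from -0.18 to 0.51 in the same way. The cause was not tested.

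Contrasts between the lines are set apart for 22 named segments that were not tested in each line, most of them at or near 0 in 1 line. That choice was made after seeing their values. Counted over segments and alternatives, the difference of the knockdown change turned direction 13 times in 10 segments (values from -1.52 to 3.99) and gained significance 2 times in 1 segment, and the sh-NC line difference lost it 24 times in 6 segments. For such segments bounds or counts are given in place of those estimates.

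Libraries with the same replicate number showed no shared deviation (correlation of same-numbered deviations -0.0229 in 6T-CEM and 0.000185 in J.gamma1, 2 pairs each). A single correlation for each line cannot show that the libraries were not prepared in pairs. With a replicate block 2 segments were called in 6T-CEM, 12 in J.gamma1, 4 for the difference and 23 between the lines, and the adjusted p of TRBC1 in J.gamma1 was 0.192 and that of its difference 0.0822. Depth limits the segments with few counts, whose standard errors are wide.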
